A study of Mus musculus with 354 samples.

Results

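The organic anion transporter genes described here are Slc17a1, Slc17a2, Slc17a3 and Slc17a4, of the solute carrier family 17, and Slc22a7, of family 22. They were chosen by earlier results of these same data, namely the tolvaptan minus vehicle differences per strain and over strains and the vehicle strain means, so those values are given as descriptions with no test. Probe sets annotated to a single member symbol were found for 4 of the 5 genes, 5 probe sets of 42597 in all, and these 4 were among the 14125 genes tested. Slc17a4 had no such probe set and is not analysed here. Liver RNA came from male mice of 45 inbred Collaborative Cross strains, a panel bred from several founder strains. Animals labelled Control received vehicle (179 animals), and the others received tolvaptan, an antagonist of the vasopressin V2 receptor (175 animals). Livers were taken 24 h after treatment from mice aged 8 to 10 weeks that had been acclimated for about 7 days and fasted for about 18 h. Vehicle and tolvaptan animals of a strain carried the same inbred genotype by label, and each array held 1 animal. Of the 90 combinations of strain and treatment, 85 had 4 animals, 4 had 3 and 1 had 2.

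Organic anion transporters move charged metabolites, drugs and urate across the membranes of liver and kidney cells. The family 17 members studied here were first described as sodium-phosphate cotransporters, and Slc17a1 and Slc17a3 are known to carry urate and other organic anions, while Slc17a2 is a close and less studied relative. Slc22a7, an uptake carrier of the hepatocyte membrane facing the blood, is known to handle small anions such as urate, cyclic nucleotides and several drugs. HNF1 factors, which recognise a palindromic DNA motif, are known regulators of many liver and kidney transporter genes.

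In the RefSeq table of assembly GRCm38.p6, Slc17a2, Slc17a3, Slc17a1 and Slc17a4 follow each other in this order as adjacent protein-coding genes on chromosome 13, and Slc22a7 lies on chromosome 17. Promoter entries were found for 3 of the 5 members, with 2 start sites for Slc17a1. Slc17a4 and Slc22a7 are named only. The 250 bases before each start are shown for these 3 chromosomal neighbours, whose values are set side by side in the results. Capitals mark matches to the HNF1 palindrome, that is GTTAAT, any base and ATTAAC, with up to 2 mismatches, on either strand. The windows, all on the plus strand, are chr13:23806743-23806992 for Slc17a2, chr13:23839184-23839433 for Slc17a3, and chr13:23868768-23869017 and chr13:23870023-23870272 for start sites 1 and 2 of Slc17a1.
Slc17a2: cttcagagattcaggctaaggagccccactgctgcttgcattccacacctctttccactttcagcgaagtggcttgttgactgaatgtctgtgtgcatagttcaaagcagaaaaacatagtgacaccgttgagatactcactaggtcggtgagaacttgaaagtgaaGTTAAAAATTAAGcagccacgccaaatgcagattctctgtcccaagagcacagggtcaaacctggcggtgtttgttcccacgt
Slc17a3: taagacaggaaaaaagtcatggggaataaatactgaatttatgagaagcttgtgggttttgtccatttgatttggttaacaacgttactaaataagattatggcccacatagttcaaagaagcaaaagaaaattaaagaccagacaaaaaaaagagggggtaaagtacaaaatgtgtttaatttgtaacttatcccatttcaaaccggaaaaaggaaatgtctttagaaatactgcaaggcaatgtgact
Slc17a1 start site 1: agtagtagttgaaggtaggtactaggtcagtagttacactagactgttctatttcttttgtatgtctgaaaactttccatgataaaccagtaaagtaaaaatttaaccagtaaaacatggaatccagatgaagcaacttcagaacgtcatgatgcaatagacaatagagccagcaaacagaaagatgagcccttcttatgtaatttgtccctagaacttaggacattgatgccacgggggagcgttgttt
Slc17a1 start site 2: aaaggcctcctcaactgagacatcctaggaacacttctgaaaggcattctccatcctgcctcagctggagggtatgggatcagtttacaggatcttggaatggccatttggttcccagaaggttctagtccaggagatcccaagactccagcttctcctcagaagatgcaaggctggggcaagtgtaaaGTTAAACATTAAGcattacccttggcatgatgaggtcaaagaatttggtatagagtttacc
The palindrome matched with 2 mismatches in Slc17a2, from 83 to 71 bases before the start, and in Slc17a1 start site 2, from 61 to 49 bases before it. Of 32851 mouse promoters searched in windows of the same length, 1.24% held such a match. Slc17a3 and Slc17a1 start site 1 held none, which says only that these letters are not in these windows. The nuclear receptor motif AGGTCA, present in 14% of promoters, occurred in both Slc17a1 windows. GTTAAT without mismatch (6.43% of promoters; part of the palindrome above) and TATAAA (12.4%) occurred in none of the 4 windows. These windows are of the reference genome, and the alleles of the Collaborative Cross strains were not examined.

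Each array was set against the rest of its labelled strain over the 500 probe sets that best separated strains. In 34 arrays, spread over 19 strains, this correlation did not exceed 0.33, whereas it reached at least 0.645 in the remaining 320, and 27 of the 34 carried the Control label. They are called off-strain arrays here, the labels were kept, and values without them are given for the main results and for the strains named. For a strain that held such arrays, its value without them rests on fewer animals and is given with no SE. The arrays fall into 6 scans by scan date in the labels, and scan 1 held 1 animal of each strain and treatment. Of the 34 off-strain arrays 22 were in scan 2, so leaving out either set removes many of the same arrays. The liver label was checked against defining markers. The mean of 8 hepatocyte markers lay between 11.96 and 13.09 (median 12.81) in vehicle arrays and between 12.04 and 13.22 (median 12.79) in tolvaptan arrays on the log2 scale. Of 8 kidney markers 5 were tested, and their mean had a median of 3.16 in vehicle and 3.15 in tolvaptan arrays, where the median of all probe sets lay between 2.81 and 3.02 per array. All 4 measured members lay above the array median in 354 of 354 arrays. In whole liver, fewer cells of a type and less RNA per cell cannot be told apart.

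Slc17a1, a carrier of urate and other organic anions, was on average somewhat higher after tolvaptan, with a few strains far above the rest. Its probe set, 1417280_PM_at, ranged from 3.89 over a median of 5.93 to 7.57 on the log2 scale in the 179 vehicle animals (mean 5.93 ± 0.66, SD) and from 4.42 over a median of 6.23 to 8.33 in the 175 tolvaptan animals (mean 6.16 ± 0.72, SD). The groups overlapped over most of their range, and the highest value of all came from a tolvaptan animal and the lowest from a vehicle animal of the same strain, OR5119. With each strain weighted equally and scan in the model, tolvaptan minus vehicle was 0.22 ± 0.057 (SE; 1.17-fold), positive in 32 of 45 strains. The median difference of all 14125 genes was 0.00027, and 38 genes had a more positive difference than Slc17a1. Of the 4 measured members, Slc17a1 alone was among the genes called higher by limma at an adjusted p under 0.05, which were 46, or 0.326% of those tested. No member was among the 24 genes called lower, 0.17% of those tested. Without off-strain arrays Slc17a1 was not among the 19 genes called higher (0.135%), while Slc22a7 was among the 25 called lower (0.177%). The members were chosen on this contrast, so nothing is read from these counts. Without off-strain arrays the Slc17a1 difference was 0.20 ± 0.055 (SE), positive in 30 of 45 strains by the same model. With off-strain arrays kept it was 0.28 without scan 1, 0.14 without scan 2 and 0.11 without scan 3.

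Strain OR5035 had the most positive Slc17a1 difference. Its vehicle animals had log2 values of 5.01, 5.99, 5.57 and 4.71, and its tolvaptan animals had 7.47, 7.32, 8.17 and 6.09. Every tolvaptan animal of OR5035 lay above every vehicle animal, and the fitted difference was 1.94 ± 0.38 (SE). Strain OR5119 came next, with vehicle values of 3.97, 3.89, 4.17 and 7.17 and tolvaptan values of 5.44, 4.42, 7.21 and 8.33. The vehicle animal at 7.17 was an off-strain array. The difference in OR5119 was 1.55 ± 0.38 (SE) with that animal and 2.37 without off-strain arrays, and it was 0.85 without the tolvaptan animal at 8.33. In OR3154 the vehicle values were 5.71, 4.94, 5.42 and 5.43 and the tolvaptan values 5.53, 7.81, 6.37 and 5.14. The groups of OR3154 overlapped, and its difference of 0.84 ± 0.38 (SE) dropped to 0.32 without the animal at 7.81. At the other end stood OR477, with vehicle values of 6.43 (off-strain), 5.77, 5.91 and 5.70 and tolvaptan values of 5.09, 5.49 and 5.30. Here every tolvaptan animal lay below every vehicle animal, at a difference of -0.66 ± 0.41 (SE), or -0.50 without off-strain arrays. Without such arrays AU8024 (-1.24, from -0.34) and OR13421 (-0.77, from -0.28) had more negative differences than OR477, and AU8033 moved from 0.65 to 1.35. In AU8024, OR13421 and AU8033 this left out 2 of 4 vehicle arrays each, and in AU8024 and AU8033 also 1 of 4 tolvaptan arrays. In AU8049 (-0.46 ± 0.38, SE) and IL16680 (-0.36 ± 0.38, SE) the difference was about as large as its error.

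Counted over all strains, Slc17a1 had 1 strain with all tolvaptan animals above all vehicle animals (OR5035) and 1 with all below (OR477). Slc17a3 had 1 above (OR15156), Slc22a7 had 3 below (AU8043, OR3032 and OR5035), and Slc17a2 had none in either direction. Over all pairs of gene and strain such full separation occurred upward in 1.55% and downward in 1.5%. The 3 strains of Slc22a7 are 6.67% of 45, above the downward share, and a count of 1 is 2.22%. The per-strain differences chose the members, so nothing is read from these counts.

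**Figure D1:**
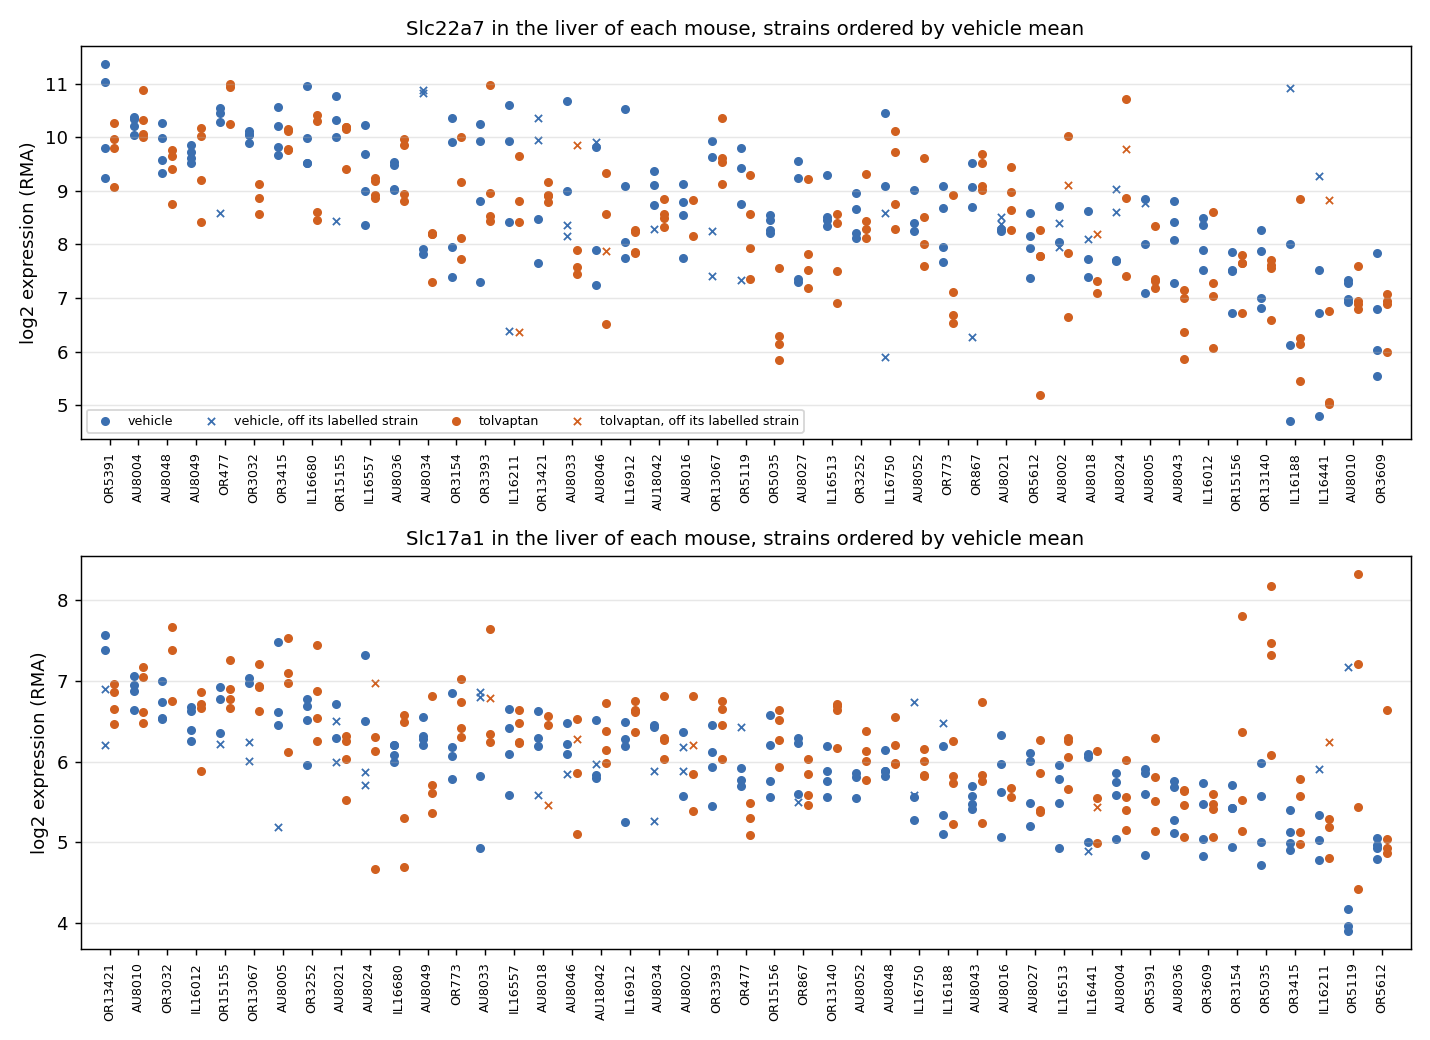
Log2 expression of Slc22a7 (top) and Slc17a1 (bottom) in each of 354 mice, with the 45 strains ordered from the highest to the lowest fitted vehicle mean. Points are animals given vehicle (blue) or tolvaptan (orange), and crosses are off-strain arrays. Slc22a7 spans 4.70 to 11.37, and for Slc17a1 the tolvaptan animals of OR5035 and OR5119 reach the highest values.

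Slc22a7, the hepatocyte uptake carrier, was on average lower after tolvaptan and varied most of the members, both between strains and between animals of a strain. The probe set 1451460_PM_a_at ranged from 4.70 over a median of 8.60 to 11.37 in vehicle animals (mean 8.70 ± 1.26, SD) and from 5.02 over a median of 8.49 to 10.99 in tolvaptan animals (mean 8.40 ± 1.31, SD). The groups overlapped almost fully. Tolvaptan minus vehicle averaged over strains was -0.30 ± 0.10 (SE; 0.814-fold), and 14 of 45 strains had a positive difference. Only 3 of the 14125 genes had a more negative value than Slc22a7, but its residual SD between animals of a strain and treatment, 0.94, was also at the 99.3 percentile of all genes, whose median was 0.30. Without off-strain arrays the averaged Slc22a7 difference was -0.33 ± 0.086 (SE). With off-strain arrays kept it was -0.40 without scan 1, -0.039 without scan 2 and -0.29 without scan 3. Scan 2 alone gave -0.29, and most strains of scan 2 keep only their scan 1 animals when scan 2 is left out. The difference was below -0.5 in 17 strains and above 0.5 in 5.

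In OR5035 Slc22a7 stood at 8.26, 8.46, 8.22 and 8.55 in vehicle animals and at 6.30, 6.14, 5.84 and 7.56 in tolvaptan animals. The vehicle animals of OR5035 lay close together, and all 4 tolvaptan animals lay below them, at a fitted difference of -1.92 ± 0.66 (SE). In AU8043 the vehicle values were 8.08, 8.82, 7.29 and 8.43 and the tolvaptan values 5.86, 7.15, 7.00 and 6.37, with a difference of -1.56 ± 0.66 (SE) and again no overlap. In OR3032 the 4 vehicle animals had 10.06, 9.90, 10.04 and 10.12, the tightest vehicle group for this gene, and the 3 tolvaptan animals had 8.86, 9.13 and 8.56. The OR3032 difference was -1.17 ± 0.71 (SE), where the error is that of the model, which shares 1 spread over all strains. None of these 3 strains held an off-strain array.

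Several other large Slc22a7 differences changed much without off-strain arrays or without a single animal. OR773, however, held no off-strain array and had a difference of -1.15 ± 0.67 (SE), with overlapping groups. AU8034 had vehicle values of 10.88, 10.82, 7.83 and 7.92 against tolvaptan values of 8.20, 7.30, 8.19 and 8.22. The vehicle animals at 10.88 and 10.82 were off-strain arrays, and the difference of -1.39 ± 0.66 (SE) became 0.20 without such arrays. In OR867 the vehicle values were 6.28 (off-strain), 9.52, 8.69 and 9.07 and the tolvaptan values 9.02, 9.09, 9.70 and 9.53, so that a difference of 0.94 ± 0.66 (SE) dropped to 0.27 without off-strain arrays. In OR13067, with off-strain vehicle values of 8.26 and 7.40 beside 9.92 and 9.64, and tolvaptan values of 9.13, 9.61, 10.36 and 9.55, the difference of 0.77 ± 0.67 (SE) became -0.15. In the opposite direction AU8033 moved from -0.85 ± 0.66 (SE) to -2.13 without off-strain arrays, then the most negative of all strains. OR13421 moved from -0.17 ± 0.66 (SE) to 0.98 without off-strain arrays. Among the 3 strains with the most positive differences, only AU8024 had a larger one without such arrays. Its difference of 0.93 ± 0.66 (SE) was 1.37 without off-strain arrays, but 0.43 without the tolvaptan animal at 10.72.

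The tolvaptan differences of Slc17a1 and Slc22a7 took other values in scan 1 than in the later scans. For Slc17a1 the difference was 0.041 ± 0.11 (SE) in scan 1 and 0.28 ± 0.063 (SE) in scans 2 to 6 together, with 0.17, 0.35, 0.27 and 0.54 in scans 2, 3, 4 and 5. For Slc22a7 it was 0.043 ± 0.16 (SE) in scan 1 and -0.40 ± 0.12 (SE) in scans 2 to 6, with -0.29, -0.42, -0.72 and -0.21 in scans 2 to 5. Both averaged differences thus came from the later scans, and in scan 1 neither exceeded its error. The scan 1 level of Slc22a7 minus that of later scans was -0.036 ± 0.16 (SE over 45 strains) in vehicle animals and 0.41 ± 0.13 in tolvaptan animals. For Slc17a1 these level differences were 0.063 ± 0.10 in vehicle and -0.18 ± 0.10 in tolvaptan animals. For both genes the gap between scan 1 and the rest was wider in tolvaptan than in vehicle animals, with opposite signs for the 2 genes. Scan 1 alone gave 0 genes called by limma, with 358 genes at an unadjusted p under 0.05, against 158 called in scans 2 to 6, with 1664 at an unadjusted p under 0.05. The difference between scans was not tested.

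**Figure D2:**
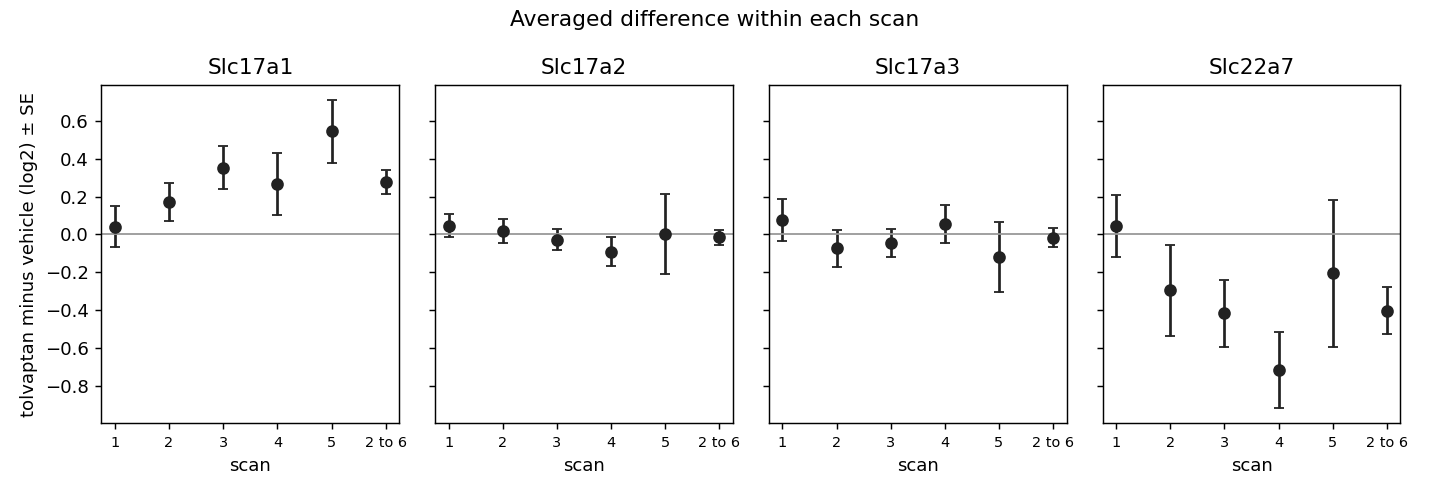
Tolvaptan minus vehicle on the log2 scale for each measured member within scans 1 to 5 and over scans 2 to 6 together, with bars of 1 SE and a line at 0. For Slc17a1 the value is 0.041 in scan 1 and 0.28 in scans 2 to 6, and for Slc22a7 it is 0.043 and -0.40, while Slc17a2 and Slc17a3 stay within 0.12 of 0 in every scan.

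Slc17a1 and Slc22a7 had differences of opposite sign in 30 of 45 strains. In 24 strains the Slc17a1 difference was positive and that of Slc22a7 negative, in 6 the signs were turned, in 8 both were positive and in 7 both were negative. Slc17a1 was positive in 32 strains and Slc22a7 in 14, so many opposite signs follow from these counts alone. Nothing is read from the number of strains with opposite signs. Pearson's r between the 2 sets of 45 strain differences was -0.49, and -0.69 without off-strain arrays. The same sign of relation held among single animals: the deviations of the 354 arrays from their strain and treatment means had r = -0.32 between the 2 genes, with -0.34 in vehicle and -0.30 in tolvaptan animals. Vehicle strain means of the 2 genes, in contrast, had r of only -0.037, or -0.15 without off-strain arrays. Both values of a point in these relations come from the same arrays, so anything that acts on a whole array is shared, and the r values are descriptions. With all arrays OR5035 stood at the corner of this relation, with the most positive Slc17a1 and the most negative Slc22a7 difference, while its Slc17a2 difference was 0.095 ± 0.22 (SE) and its Slc17a3 difference 0.31 ± 0.32 (SE). Without off-strain arrays OR5035 led for neither gene, as OR5119 had the most positive Slc17a1 difference (2.37) and AU8033 the most negative Slc22a7 difference (-2.13). These values rest on fewer animals: 1 of 4 vehicle arrays was left out in OR5119, and 2 of 4 vehicle and 1 of 4 tolvaptan arrays in AU8033.

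**Figure D3:**
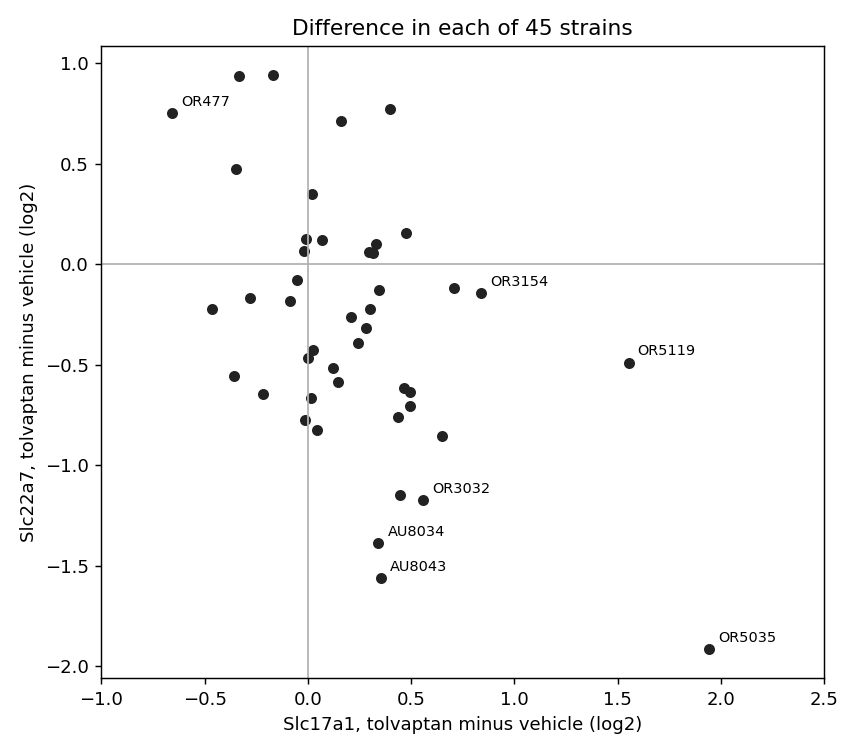
Tolvaptan minus vehicle on the log2 scale in each of 45 strains (points, all arrays kept), Slc17a1 on the horizontal and Slc22a7 on the vertical axis, with lines at 0. OR5035 lies at 1.94 and -1.92, and 24 strains lie in the quadrant where Slc17a1 is positive and Slc22a7 negative.

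The strain differences most like those of Slc17a1 over the 45 strains, in a search added after the values were seen, were those of Chordc1 (r = 0.69), a heat shock protein cochaperone, Reep3 (0.66), a protein of the endoplasmic reticulum, and, at the same r of 0.66, Chmp3, Pdia6, a protein disulfide isomerase of the endoplasmic reticulum, and Poglut2. The most opposite were Sardh (-0.69), sarcosine dehydrogenase, Ftcd (-0.69), formiminotransferase cyclodeaminase of histidine breakdown, and Uroc1 (-0.66), urocanase of the same pathway. Without off-strain arrays r was 0.71 with Pdia6, -0.84 with Sardh, -0.86 with Ftcd and -0.79 with Uroc1. For Slc22a7 the genes with the most similar strain differences were Qsox1 (0.73), a sulfhydryl oxidase, Abcc5 (0.68), an export pump for organic anions and cyclic nucleotides, and Acap1 (0.64), and the most opposite was Proca1 (-0.71).

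Slc17a2 and Slc17a3, the chromosomal neighbours of Slc17a1, had averaged differences near 0. Slc17a2 (probe set 1425033_PM_at) ranged from 8.84 over a median of 9.78 to 10.42 in vehicle animals (mean 9.70 ± 0.37, SD) and from 8.15 over a median of 9.69 to 10.75 in tolvaptan animals (mean 9.68 ± 0.41, SD). The groups of Slc17a2 overlapped throughout, and the averaged difference was -0.0060 ± 0.033 (SE), positive in 24 of 45 strains. Slc17a3 (1418923_PM_at) ranged from 6.86 over a median of 8.64 to 9.87 in vehicle animals (mean 8.58 ± 0.59, SD) and from 5.05 over a median of 8.65 to 9.67 in tolvaptan animals (mean 8.58 ± 0.60, SD). Its averaged difference was -0.0025 ± 0.049 (SE), positive in 23 of 45 strains.

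Single strains gave a few larger values for both genes. OR5119 had the most negative Slc17a2 difference. Its vehicle animals had Slc17a2 at 8.995, 9.94, 9.51 and 9.70 (off-strain) and its tolvaptan animals at 9.08, 9.52, 9.28 and 8.15, a difference of -0.61 ± 0.22 (SE). It was -0.50 without off-strain arrays and -0.38 without tolvaptan animal 368, the one at 8.15. In AU8049 the vehicle animals had Slc17a2 at 10.15, 10.14, 10.22 and 10.06 and the tolvaptan animals at 9.33, 9.04, 9.99 and 10.07, a difference of -0.53 ± 0.22 (SE). Slc17a3 in AU8049 stood at 9.24, 8.79, 8.86 and 9.53 in vehicle and at 8.25, 7.75, 8.73 and 9.09 in tolvaptan animals, a difference of -0.65 ± 0.32 (SE). The same animals were low for both genes, and no array of AU8049 was off-strain. Without tolvaptan animal 346, the lowest for both, the differences were -0.34 for Slc17a2 and -0.42 for Slc17a3. OR3393 came next for Slc17a2, at -0.31 ± 0.22 (SE). In OR5119 tolvaptan animal 368 had the lowest value of all 354 arrays for Slc17a2 (8.15) and for Slc17a3 (5.05), and the highest for Slc17a1 (8.33). Its array also had the lowest correlation with its strain, 0.645, of the 320 arrays not counted as off-strain. The other tolvaptan animals of OR5119 had Slc17a3 at 9.23, 8.92 and 7.73, and its vehicle animals at 7.60, 8.49, 8.33 and 8.34. With animal 368 the Slc17a3 difference in OR5119 was -0.62 ± 0.33 (SE), and without it 0.24.

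In IL16750 Slc17a3 stood at 8.38 (off-strain), 7.54, 8.19 and 8.55 (off-strain) in vehicle and at 7.74, 7.51, 7.26 and 7.58 in tolvaptan animals, a difference of -0.64 ± 0.32 (SE) that was -0.37 without off-strain arrays. The positive side of Slc17a3 was led by OR13067, OR15156 and IL16513. In OR15156 the vehicle values were 8.64, 8.87, 8.96 and 9.19 and the tolvaptan values 9.20, 9.59, 9.22 and 9.53, without overlap, at 0.47 ± 0.32 (SE). The value of OR13067, 0.53 ± 0.33 (SE), became -0.021 without off-strain arrays, and that of IL16513 was 0.44 ± 0.33 (SE). Without off-strain arrays the most positive Slc17a3 difference was that of AU8033, 0.62, from 0.21 with them. For Slc17a2 the most positive strains were AU8034 (0.28), IL16750 (0.25) and OR13067 (0.24), each with an SE of 0.22. Without off-strain arrays these were -0.068, 0.28 and 0.060, and OR15155 was then highest at 0.33.

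Deviations of single animals from their strain and treatment mean linked Slc17a2 and Slc17a3, with r = 0.45 over 354 arrays (0.35 in vehicle, 0.53 in tolvaptan animals, 0.49 without off-strain arrays). Their vehicle strain means did not go together, with r = -0.037. Among the 6 pairs of members, r over the 45 vehicle strain means lay between -0.037 and 0.13, and without off-strain arrays between -0.15 and 0.19. The genes whose single-animal deviations were most like those of Slc17a3, again a search added after the values were seen, were Hao1 (r = 0.70), hydroxyacid oxidase of the peroxisome, Akr1c20 (0.69) and Akr1c6 (0.68), aldo-keto reductases, and Bbox1 (0.68), the last enzyme of carnitine synthesis, and the most opposite was Mapkapk2 (-0.69), a stress-activated kinase. The same deviations were set against the means of 11 marker lists. For Slc17a1 r lay between -0.27, with the 1 red cell marker tested, and 0.12, with 8 hepatocyte markers. For Slc17a2 it lay between -0.31 with 5 kidney markers and 0.33 with 5 stellate cell markers, and for Slc17a3 between -0.41 and 0.36 with the same lists. For Slc22a7 it lay between -0.31, with 3 intestinal markers, and 0.35, with 5 exocrine pancreas markers and likewise with the red cell marker, and was 0.27 with 5 lymphocyte markers. In the intestinal list Fabp2 averaged 8.75 in vehicle animals, against 2.81 for Vil1 and 2.73 for Cdx2. In the pancreas list Cela1 averaged 6.90, against 3.08 for Cela2a, the next highest. The kidney list lay near the array median, as given above. These r values are therefore not read as amounts of those cell types. The part of such markers in the results was not tested.

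Slc17a2 had a second probe set, 1425034_PM_at, with a mean of 6.23 ± 1.10 (SD) and a range of 2.40 to 8.23 over 354 arrays. Its averaged difference was 0.049, positive in 22 strains, against -0.0060 and 24 strains for 1425033_PM_at. Over the 45 vehicle strain means the 2 probe sets had r of only 0.12, while their deviations within strain and treatment had r = 0.61. The strain order of Slc17a2 therefore depends on the probe set, whereas its variation between animals of a strain is partly shared.

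Vehicle levels differed widely between strains. The fitted vehicle means of the 45 strains had an SD of 0.93 for Slc22a7, 0.52 for Slc17a1, 0.48 for Slc17a3 and 0.29 for Slc17a2, where the median gene had 0.24, and 223 genes had a larger value than Slc22a7. Slc22a7 was highest in OR5391 (10.58), AU8004 (10.47) and AU8048 (10.01) and lowest in IL16441 (6.99), AU8010 (6.95) and OR3609 (6.37), an 18.5-fold range. Single vehicle animals had 9.25, 9.80, 11.37 and 11.04 in OR5391, and 7.85, 6.03, 6.79 and 5.54 in OR3609, so that the extremes did not overlap. AU8004 and AU8010 were tight at opposite ends, at 10.22, 10.35, 10.39 and 10.04 against 6.99, 7.35, 6.93 and 7.28 for Slc22a7. The widest vehicle group was IL16188, at 10.92 (off-strain), 4.70, 8.02 and 6.13. Without off-strain arrays the Slc22a7 mean of IL16188 was 6.33, the lowest of all, that of IL16441 was 6.39, and OR477 (10.48) and OR15155 (10.41) came after OR5391 (10.49), a 17.9-fold range.

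Slc17a1 had its highest vehicle means in OR13421 (7.03), AU8010 (7.02) and OR3032 (6.84) and its lowest in IL16211 (5.17), OR5119 (4.93) and OR5612 (4.84), a 4.56-fold range. Without off-strain arrays OR5119 was lowest at 4.13 and OR13421 stood at 7.49, and the range of Slc17a1 widened to 10.3-fold. The 4 vehicle animals of AU8010 stood at 6.95, 7.07, 6.87 and 6.64 for Slc17a1 and those of OR5612 at 5.05, 4.97, 4.80 and 4.92, without overlap. AU8010 was thus near the top for Slc17a1 and near the bottom for both Slc22a7 and Slc17a3. For Slc17a3 the highest were AU8046 (9.38), AU8018 (9.38) and OR477 (9.31) and the lowest OR13067 (7.77), OR3032 (7.73) and AU8010 (7.60), a 3.43-fold range. Without off-strain arrays OR13067 stood at 8.34 and was no longer among the lowest 3, AU8046 stood at 9.63, and the range of Slc17a3 was 4.20-fold. The Slc17a2 extremes were AU8027 (10.26), AU8049 (10.20) and OR3393 (10.12) above and OR15155 (9.21), OR477 (9.06) and AU8052 (8.92) below, a 2.52-fold range, or 2.53-fold without off-strain arrays. Neighbours in these orders could not be told apart: of 44 gaps between adjacent vehicle means, none exceeded its own SE for any of the 4 genes.

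Tolvaptan strain means follow from the vehicle means and the per-strain differences that chose the members, so they too are given with no test. Their SD over the 45 strains was 1.11 for Slc22a7, 0.56 for Slc17a1, 0.47 for Slc17a3 and 0.30 for Slc17a2. The order of strains was largely shared between treatments. Pearson's r between vehicle and tolvaptan strain means was 0.82 for Slc22a7, 0.79 for Slc17a2, 0.79 for Slc17a3 and 0.63 for Slc17a1, over 45 strains whose vehicle and tolvaptan animals were different mice. Without off-strain arrays these values were 0.83, 0.82, 0.81 and 0.52. Slc17a1 had the lowest of these values, and OR5035 moved from rank 41 under vehicle to rank 2 under tolvaptan and OR5119 from rank 44 to rank 14, with all arrays kept. By contrast OR5612 was last for Slc17a1 under both treatments with all arrays kept, although a single tolvaptan animal stood at 6.64 beside 4.93, 4.87 and 5.04.

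**Figure D4:**
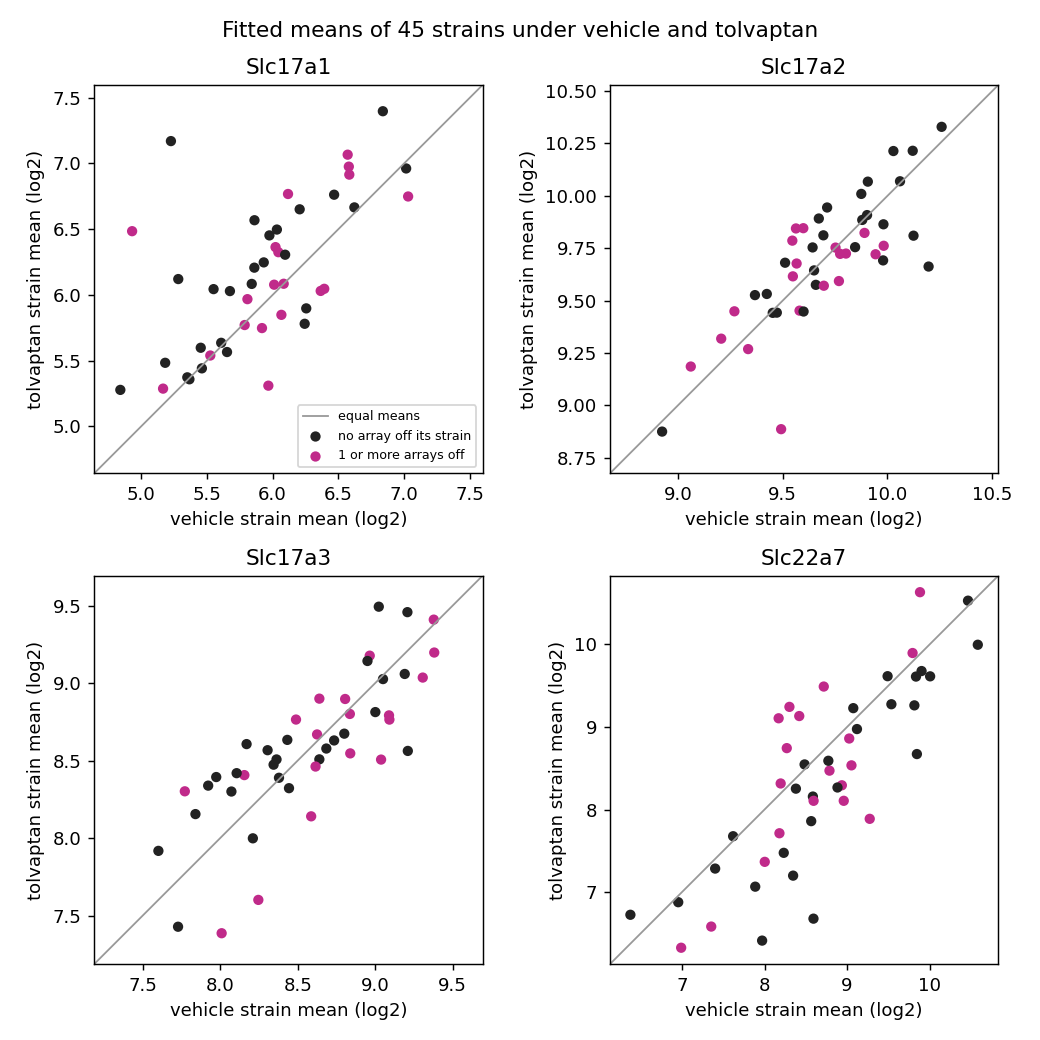
Fitted log2 means of the 45 strains under vehicle (horizontal) and tolvaptan (vertical) for the 4 measured members, with a line of equal means. Magenta points are strains with at least 1 off-strain array, and r over strains is 0.63 for Slc17a1, 0.79 for Slc17a2 and Slc17a3, and 0.82 for Slc22a7.

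The genes whose vehicle strain means were most like a member's were sought over the 45 strains. For Slc17a1 they were Acot13 (r = 0.61), an acyl-CoA thioesterase, Gmnn (0.56), the replication inhibitor geminin, Tbca (0.52), Exog (0.51) and Pnp (0.51), a phosphorylase of purine breakdown. Acot13 and Gmnn are also neighbours, the 7th and 5th tested gene on from Slc17a1 along chromosome 13. Under tolvaptan r with Slc17a1 was 0.37 for Acot13 and 0.52 for Gmnn. Of the 50 most similar genes, 6 lay on chromosome 13 for Slc17a1, 3 for Slc17a2 and 3 for Slc17a3, where 3.61% of tested genes lie, and none lay on chromosome 17 for Slc22a7. Among 38 tested neighbours of Slc17a1 that are no members, only Acot13 and Gmnn had r above 0.3, that is 5.26% of them against 2.87% of all genes, and Aldh5a1 (-0.52), Cmah (-0.50) and Hfe (-0.46) went the other way. Neighbouring genes share their stretch of founder chromosome within a strain.

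**Figure D5:**
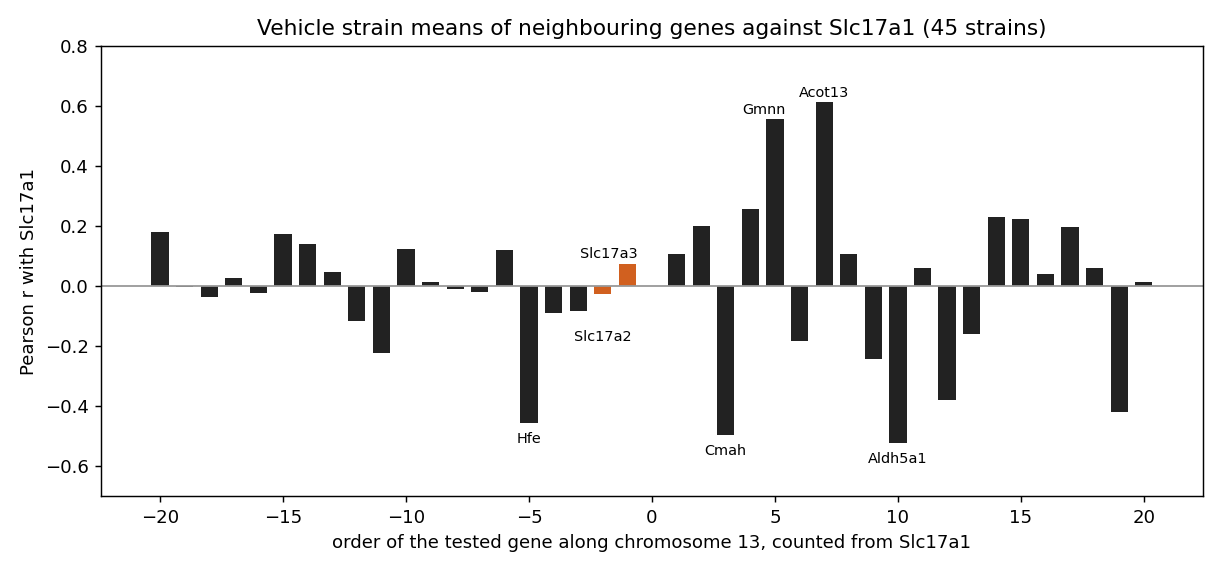
Pearson's r between the vehicle strain means of Slc17a1 and those of the 40 tested genes nearest to it on chromosome 13, by their order (45 strains). Slc17a2 and Slc17a3 (orange) are at -0.026 and 0.074, while Acot13 (0.61) and Gmnn (0.56) are the highest and Aldh5a1 (-0.52) the lowest.

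For Slc17a2 the most similar genes were Tns3 (r = 0.77), Kdr (0.70), the endothelial VEGF receptor, Nfat5 (0.68), Pole3 (0.66) and Scd1 (0.66), a fatty acid desaturase. For Slc17a3 they were Tbccd1 (0.60), Nrep (0.60), Tppp (0.59), Stard4 (0.58), a sterol carrier, and Hao1 (0.58). Hao1 was the gene that also led the single-animal deviations of Slc17a3. For Slc22a7 they were Nhlrc1 (0.58), Abcc5 (0.57), Tatdn3 (0.55), Mccc2 (0.54), an enzyme of leucine breakdown, and Odf3b (0.53). Abcc5 had r = 0.69 with Slc22a7 over tolvaptan strain means, higher than in vehicle, while the leading gene of each member had a lower r there, at 0.58 for Tns3, 0.41 for Tbccd1 and 0.43 for Nhlrc1.

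Related genes were followed in 7 lists of 85 genes, 63 of them tested, in the contrast averaged over strains. By limma with adjustment over all 14125 genes, 1 of the 63 was called higher and none lower. An unadjusted p under 0.05 was found for 9 of the 63, where 9.56% of all genes tested had one. The called gene was Pdzk1, a scaffold protein that holds organic anion transporters at the membrane, in the list of urate and dicarboxylate transport (1 of 9 tested). Pdzk1 averaged 7.48 in vehicle and 7.62 in tolvaptan animals, a difference of 0.14 ± 0.035 (SE) with limma's adjusted p = 0.0272, positive in 33 of 45 strains. Without off-strain arrays the Pdzk1 difference was 0.11 with limma's adjusted p = 0.153, and the call was lost. In the same list the urate carrier Slc2a9 had 0.15 ± 0.059 (SE) and the export pump Abcc4 0.10 ± 0.039 (SE), at limma's adjusted p of 0.304 and 0.292. The median difference of the 9 genes was 0.041, against 0.00027 for all genes tested.

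No gene was called in the other lists. Of the other family 22 members 15 of 24 were tested, 5 with a positive difference and 1 at an unadjusted p under 0.05 by limma, and their median difference was -0.0069. The lowest p in that list belonged to Slc22a4, a carnitine and ergothioneine carrier, at -0.12 ± 0.046 (SE), and next came Slc22a27 at 0.060 and Slc22a17 at 0.036. Of the Slco uptake carriers 8 of 11 were tested, 5 with a positive difference and none at an unadjusted p under 0.05 by limma. Slco1a5, Slco4a1 and Slco1b2, the chief hepatic member of that family, had 0.031, 0.034 and 0.045. Of the remaining family 17 members Slc17a5, the lysosomal sialic acid carrier, had -0.028 and Slc17a9, a vesicular nucleotide carrier, 0.037. Among 11 tested genes of purine breakdown to urate and allantoin 8 were positive and 5 had an unadjusted p under 0.05 by limma without being called. Over all genes tested 9.56% had such a p. Of the 5, Nt5c2 was at 0.12 ± 0.038 (SE), Uox, urate oxidase, at 0.078 ± 0.031 (SE) and Ampd2 at 0.073 ± 0.031 (SE). Adk was at 0.034 ± 0.017 (SE), and Ada went the other way at -0.13 ± 0.065 (SE). Without off-strain arrays the differences were 0.096 for Nt5c2, 0.067 for Uox, 0.022 for Ampd2, 0.045 for Adk and -0.14 for Ada. Phosphate transport (6 tested, 5 positive) and liver transcription factors (12 tested, 4 positive) had none at an unadjusted p under 0.05 by limma, and Hnf4a was at -0.028 ± 0.018 (SE). In these lists the lowest p after Slc20a1 (0.069) belonged to Slc20a2 (0.016) and Slc34a3 (0.013), and for the factors to Nr1h4 (-0.049), Nr5a2 (0.067) and Nr0b2 (-0.12).

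Among the marker lists, 2 genes were called. Over all genes tested 0.326% were called higher and 0.17% lower. Stab2, of the sinusoidal endothelium, was lower by limma, at 7.79 in vehicle and 7.60 in tolvaptan animals (-0.19 ± 0.036, SE; adjusted p = 0.00104), as 1 of 5 markers of that cell type. Of these 5 markers 2 had a positive difference, and the median was -0.039. Cela2a, of the exocrine pancreas, was higher, at 3.08 and 3.34 (0.23 ± 0.060, SE; limma's adjusted p = 0.0385), as 1 of 5 such markers, and was not called without off-strain arrays (0.0898). Only 2 of the 5 pancreas markers had a positive difference, and the median was -0.0032. The means of the 5 endothelial markers ranged from 5.53 to 7.41 in vehicle and from 5.54 to 7.33 in tolvaptan animals, and those of the 5 pancreas markers from 2.70 to 4.18 and from 2.55 to 4.48. None of the 8 hepatocyte markers was called, and none had an unadjusted p under 0.05 by limma.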

How the data were processed

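The authors deposited log2 values, made with RMA (Affymetrix Expression Console) per the submitters' processing notes, with versions not given in the sources used here. No source says if the arrays were normalized jointly. The authors' table held 354 one-colour arrays, 1 per animal, and 42597 probe sets, named through the platform annotation and RefSeq genes of GRCm38.p6. Of several single-symbol probe sets, the brightest on average stood for a gene, kept when above the array median in at least 4 arrays (14125 genes). Arrays have no read depth, and their number limits precision.

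limma 3.58.1 in R 4.3.3 was fitted with 1 mean per strain and treatment plus scan. Tests were two-sided, adjusted by Benjamini-Hochberg over all genes, at 0.05. SE values are those of this model, and strains had equal weight in averages. The steps were tested on simulated arrays. An F test among tolvaptan strain means is not reported, as those means follow from the values that chose the members. Members and lists were chosen with earlier results of these data known. Named were all members, called list genes or else the 3 with the lowest p, the 5 most similar genes per member, and the 3 strains at each end of vehicle means and of differences. Genes similar in strain differences or single-animal deviations, neighbours on the chromosome, Ada, Adk, and the marker genes named were chosen after their values were seen. The same holds for strains named beyond those 3 at each end. Alternatives left out off-strain arrays, scans or animals, or changed the scan term, probe sets, filter, weights, centring or unit of spread. The dose label has no unit and was not used.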

Additional observations from a re-analysis of the deposited data

Results flagged for a closer look

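Of 81 groups of 4 animals in the named strains, 6 had an animal set far apart from the other 3, where chance gives about 1 in 20 groups. The gap to the nearest animal, as a share of the group's range, was 0.914 for Slc17a1 in OR5119 vehicle animals (the off-strain array at 7.17), 0.902 for Slc17a1 in OR5612 tolvaptan animals (6.64), 0.853 for Slc17a2 in OR477 vehicle animals (the off-strain array at 9.52), 0.921 for Slc17a2 in AU8052 tolvaptan animals (8.87), 0.868 for Slc17a3 in OR13067 tolvaptan animals (7.65) and 0.972 for Slc22a7 in AU8034 tolvaptan animals (7.30). In AU8052 the other 3 animals stood at 9.03, 9.04 and 9.04, so that the gap itself is small.

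For Slc17a1 all tolvaptan animals of OR5035 lay above all vehicle animals while all tolvaptan animals of OR477 lay below. The 2 differences were 2.60 apart on the log2 scale, and this difference between strains was not tested.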

How the results depend on the processing

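Genes called numbered 46 higher and 24 lower with all arrays. They were 19 and 25 without off-strain arrays, 140 and 160 in the 26 strains with none, 227 and 207 with array weights, 11 and 7 with strains as the unit, and 75 and 83 without scan 1, that is in scans 2 to 6. They were 1 and 0 without scan 2, with 906 genes at an unadjusted p under 0.05, and 0 and 0 without scan 3, with 466. Within scans they were 26 and 6 in scan 3, and 0 and 0 in scans 1, 2, 4 and 5, with 358, 865, 838 and 532 genes at an unadjusted p under 0.05 by limma. The averaged difference of Slc22a7 became 0.043 in scan 1 alone and -0.039 without scan 2, and was -0.29 in scan 2 alone. Those of Slc17a2 and Slc17a3, near 0, turned positive in several settings: for Slc17a2 to 0.0022 in strains with no off-strain array, 0.022 with all probe sets, 0.033 without scan 2, 0.011 without scan 3, and 0.047, 0.018 and 0.00095 in scans 1, 2 and 5, and for Slc17a3 to 0.074 in strains with no off-strain array, 0.039 without scan 2, 0.044 without scan 3, 0.00048 with array weights, and 0.077 and 0.054 in scans 1 and 4. The averaged difference of Slc17a1 was positive in all 17 alternatives, between 0.041 and 0.54, but these were not 17 separate checks. With strains as the unit, with no filter and with all probe sets it stayed at 0.22, as these settings left its value unchanged. The fit without scan 1 and that of scans 2 to 6 are the same. Over tolvaptan strain means r dropped to 0.37 for Slc17a1 with Acot13, 0.58 for Slc17a2 with Tns3, 0.41 for Slc17a3 with Tbccd1 and 0.43 for Slc22a7 with Nhlrc1, and without off-strain arrays to 0.49 for Tbccd1 and 0.48 for Nhlrc1. Without off-strain arrays the difference in AU8034 became -0.068 for Slc17a2 and 0.20 for Slc22a7, and that in OR13067 -0.021 for Slc17a3 and -0.15 for Slc22a7. With each animal left out in turn, the Slc17a2 difference in OR3393 ran from -0.64 to 0.0037 and the Slc17a3 difference in OR5119 from -1.08 to 0.24, the only changes of sign among 24 strain differences. The cause of these changes was not tested. No paired analysis was possible because the animal numbers in the labels differ in every group.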
